A study of Mus musculus with 4 samples.

Results

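The translation initiation and elongation factor genes are the genes for the proteins that start a polypeptide chain on a ribosome and lengthen it. They were chosen by symbol, as every annotated gene whose name begins with Eif1 to Eif6 or with Eef and that has at least 1 protein-coding transcript, leaving out the eIF2 kinases named Eif2ak. The rule gave 65 of 55536 annotated genes, and used no measured value, though it was set with earlier results of these data known. The libraries are 4 replicates of 1 group, made from ribosome-depleted total RNA of the cytosolic fraction of bone marrow-derived macrophages of C57BL/6J mice. The cells had been treated with lipid A, the part of bacterial lipopolysaccharide that Toll-like receptor 4 recognises, at 100 ng/ml for 15 minutes. Neither unstimulated cells nor nuclear RNA were analysed here, so every value is a level in stimulated cells and none is a response to lipid A. All 4 libraries carry the same donor record, sex and age were not collected, and the labels do not say whether the replicates were separate cultures, so that the p-values measure only how far these samples spread, which may be technical.

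Initiation in animal cells usually begins when eIF4E binds the cap of an mRNA and, with the scaffold eIF4G and the helicase eIF4A, brings in the small ribosomal subunit. That subunit carries eIF3, eIF1, eIF1A, eIF5 and the ternary complex of eIF2, GTP and initiator tRNA, and it scans for a start codon. Elongation then uses eEF1A to deliver aminoacyl-tRNAs, the eEF1B subunits to recharge eEF1A with GTP, and eEF2 to move the ribosome along. Macrophages that meet bacterial products adjust this machinery in part at the protein level, through phosphorylation of the eIF4E-binding proteins by mTORC1, of eIF4E by the MNK kinases and of eIF2 by stress kinases, none of which RNA levels report.

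Replicates 1, 2, 3 and 4 held 30088678, 47961117, 40282297 and 45771235 expected counts on annotated genes, and the translation factor genes took 1.39%, 1.22%, 1.07% and 1.23% of them. Levels of genes are given in TPM, the deposited abundance corrected for transcript length. The RNA of the signal recognition particle, 7SL, took 7.43% to 11.6% of the expected counts on genes but 57.1% to 63.3% of all TPM. Its TPM share lowers every TPM below, by an amount that differs between libraries. Folds between libraries use CPM, the expected counts scaled to a common library size by TMM (a correction for library size and makeup in edgeR). Comparisons between genes and the summed levels of lists use TPM, so the TPM of single libraries also carry the 7SL share. All 12 macrophage markers examined averaged 1 TPM or more, while 0 of the 5 T cell, 4 B cell, 4 erythroid, 4 stromal, 4 mast cell and 3 natural killer markers did. The summed level of each of these 6 lists was at most 1.21 TPM in a library, and Hbb-bt and Tpsb2 were at 0 counts in all 4. The exceptions among the other cell types were 3 of 6 neutrophil markers and 1 of 3 megakaryocyte markers, the chemokine gene Pf4. All 6 neutrophil markers together summed to 20.4 TPM in replicate 1 and 25.5 to 38.9 TPM in the others. Pf4 stood at 485 CPM in replicate 1, against 111, 127 and 98.8 CPM in replicates 2, 3 and 4. Of the macrophage markers, Itgam was higher and Mertk lower in replicate 1. In bulk RNA, fewer cells of a type and less RNA per cell cannot be told apart. Nuclear noncoding RNAs summed to 348 TPM in replicate 1, against 269, 1113 and 1052 TPM in replicates 2, 3 and 4. On this list replicates 3 and 4 thus lay above replicates 1 and 2. Over all genes tested, replicate 1 stood apart from the other libraries. In edgeR's quasi-likelihood test of each replicate against the other 3, 3096 of 14041 genes tested differed in replicate 1 at a Benjamini-Hochberg adjusted p under 0.05 (22.0%). Its 15 cell division genes summed to 469 TPM, against 113, 115 and 158 TPM in replicates 2, 3 and 4, and 14 of the 15 were higher in it.

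Of the 65 genes, 61 averaged 1 TPM or more, and the same 61 reached the mean count of 10 needed for a test. Levels were spread widely: of the 65, 7 stood at 100 TPM or more, 33 at 10 to 100 TPM, 21 at 1 to 10 TPM and 4 below 1 TPM. The genes at 100 TPM or more were Eef1a1, Eef2, Eif4a1, Eif1, Eif5a, Eif4g2 and Eef1b2, which bring in tRNA, translocate, unwind mRNA, select the start codon, help the ribosome form difficult peptide bonds, scaffold initiation and recharge eEF1A. These levels take all transcripts of a gene, and 54.0% ± 1.96 of the Eef1b2 TPM lay in protein-coding ones (SD, n = 4). Eef1a1 alone (chromosome 9, 78478449 to 78489151 in mm10, minus strand) made up 36.9% to 44.0% of the TPM of all 65 genes in a library. The 4 genes below 1 TPM were Eef1a2, an eEF1A form known from muscle and neurons, at 0.06, 0.00, 0.02 and 0.02 TPM in replicates 1 to 4, the methyltransferase gene Eef1akmt3 at a mean of 0.0025 TPM, and Eif2s3y and Eif4e1b, both listed at 0 TPM in every library. Eif4e1b is a cap-binding form known from oocytes, and Eif2s3y is the Y-linked copy of the eIF2 gamma subunit gene. Within 13 groups by role, 30 of 48 neighbouring pairs in the order of mean TPM were ordered alike in all 4 libraries.

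**Figure D1:**
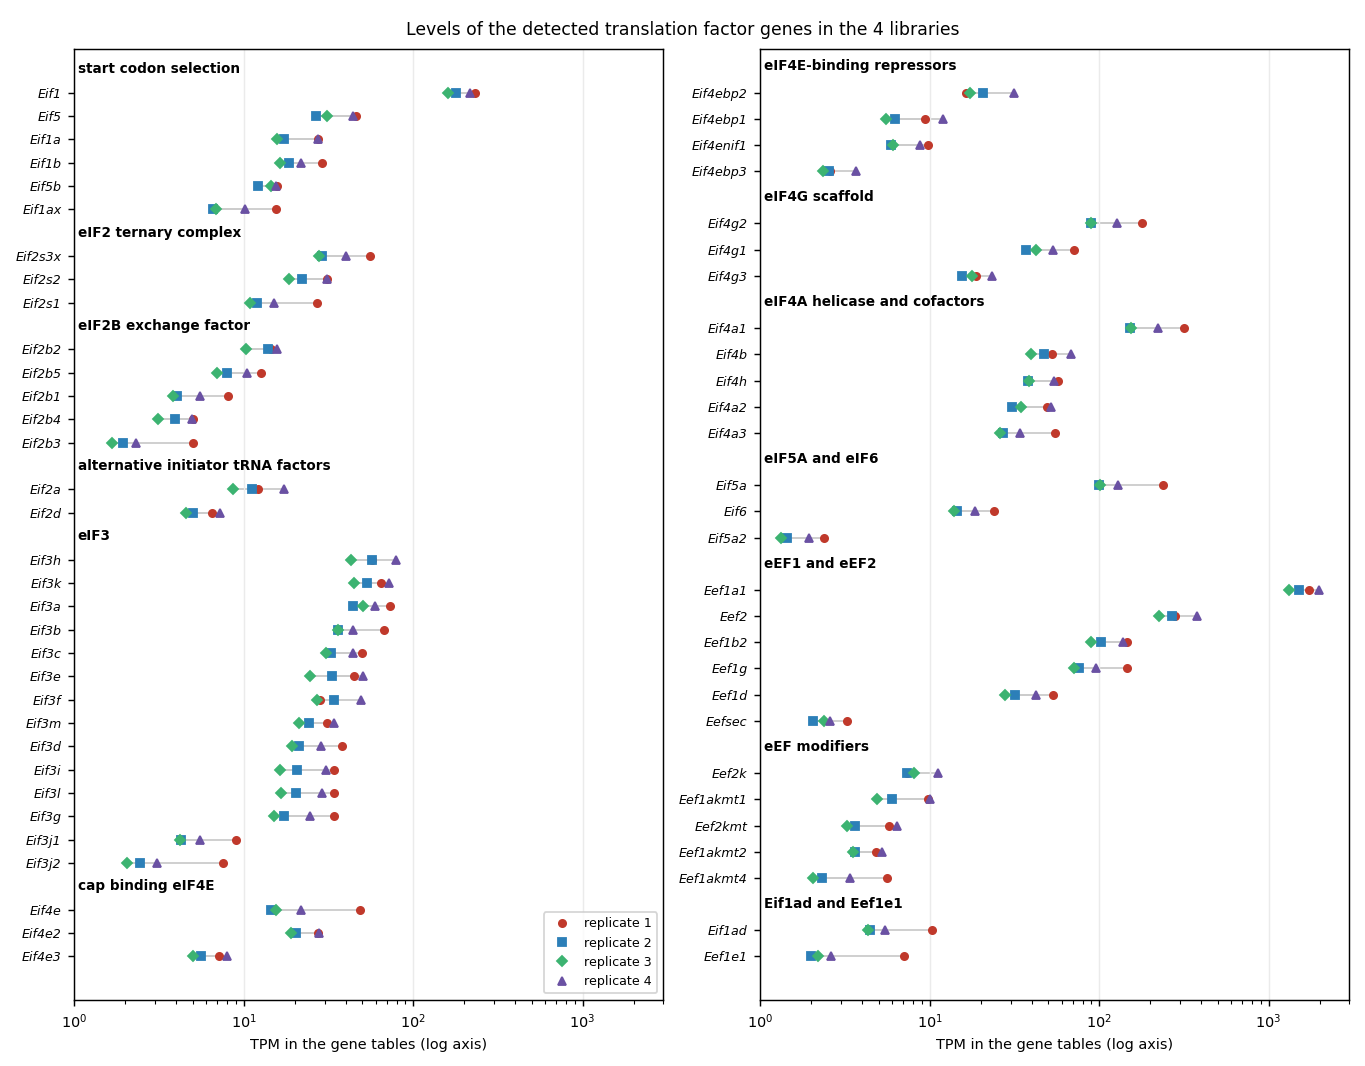
TPM on a log axis for each of the 61 detected genes, grouped by role, with 1 symbol per library. Eef1a1 lies alone at the far right, at a mean of 1642 TPM, the eIF3 subunit genes other than Eif3j1 and Eif3j2 lie between 15.1 and 79.7 TPM, and replicate 1 is the farthest right for Eif4e, Eif5a and Eef1e1.

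Set against the other 3 libraries, replicate 1 had 20 of the 61 tested genes higher (32.8%), against 14.5% of all genes tested. It had 2 of the 61 lower (3.28%), against 7.58% of all genes tested. Among protein-coding genes the shares over all genes were 17.1% higher and 8.69% lower, and among genes averaging 100 counts or more they were 18.6% and 9.88%. The median log2 fold of replicate 1 over the others was 0.28 for the translation factor genes and -0.00 for all genes tested. At an unadjusted p under 0.05 there were 32 of the 61 genes, against 36.3% of all genes tested. Replicate 1 lay above all 3 other libraries for 39 of the 61 genes and below all 3 for 9, while over all genes tested the shares were 41.4% above and 33.4% below. The lone library gives no estimate of its own spread, which the test takes from the other 3 and moderates with that of all genes tested. The cell division genes moved with replicate 1 as given above, and their part in these differences was not tested.

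**Figure D2:**
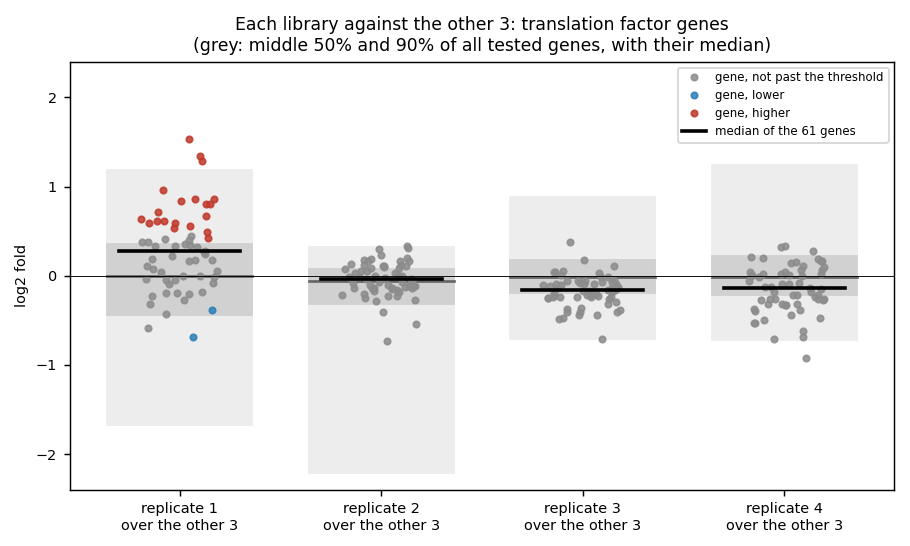
The log2 fold of each library over the other 3 for the 61 tested genes (points, coloured where the adjusted p was under 0.05) and their median (black line), over the middle 50% and 90% of all 14041 genes tested (grey). The black median is at 0.28 in replicate 1, at -0.03 in replicate 2, at -0.16 in replicate 3 and at -0.14 in replicate 4, and coloured points appear in replicate 1 alone.

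In replicates 2, 3 and 4, edgeR called 0 of the 61 genes, as it called 0 of all genes tested (0%), and DESeq2 also called 0 of the 61. Over all genes DESeq2 called 0 higher and 8 lower in replicate 2, 2 and 1 in replicate 3, and 5 and 12 in replicate 4. The 0 of edgeR over all genes holds with replicate 1 among the libraries compared. Without replicate 1, edgeR called 1 gene higher and 81 lower in replicate 2 (0.00699% and 0.566% of all genes tested), 0 in replicates 3 and 4, and again 0 of the 61. At an unadjusted p under 0.05 there were 0, 1 and 0 of the 61 genes, against 1.97%, 0.961% and 0.741% of all genes tested. The 4 comparisons share their libraries, so a gene high in replicate 1 is by construction somewhat low in the others. The median SD of log2 CPM across the 4 libraries was 0.213 for the 61 genes and 0.259 for all genes tested, and without replicate 1 it was 0.107 and 0.132. A Poisson deviance test found that 56 of the 61 (91.8%) varied between libraries by more than counting noise at a Benjamini-Hochberg adjusted p under 0.05, against 82.8% of all genes tested. The 5 that did not pass were Eif2d, Eif2b4, Eef1akmt2, Eif4ebp3 and Eif4e3. Neither the SDs nor these shares were compared at matched counts. The lowest mean count among the 61 was 103.7, for Eif4ebp3, while 10419 of the 14041 genes tested averaged 100 counts or more. Whether the 61 genes differ in spread from other genes of like count was not tested.

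**Figure D3:**
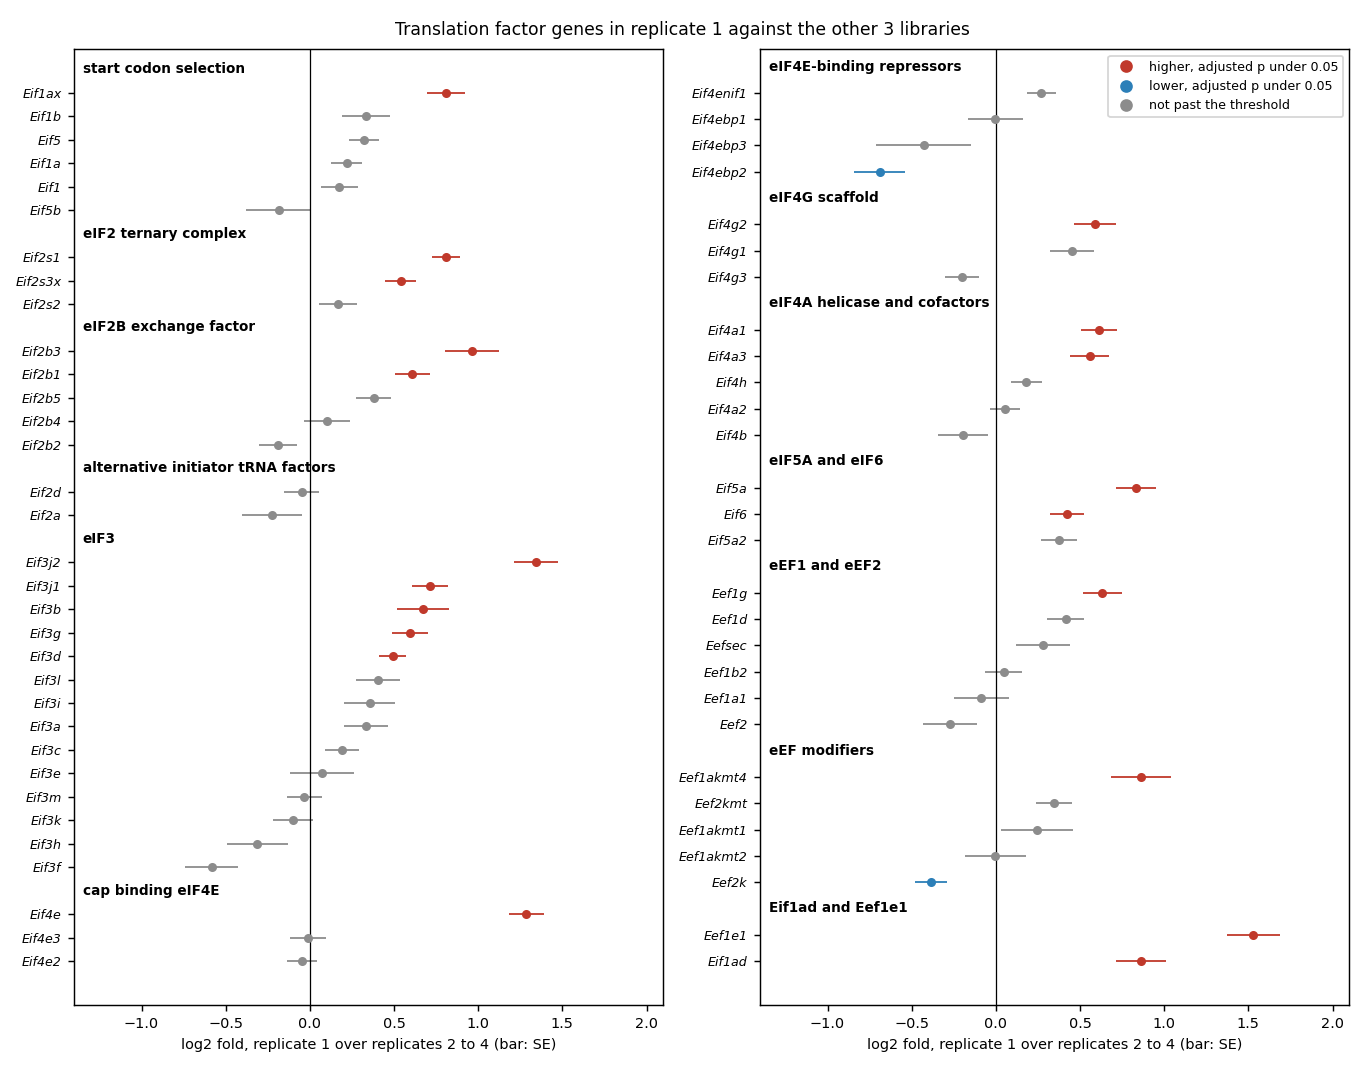
The log2 fold of replicate 1 over replicates 2 to 4, with its standard error, for each of the 61 tested genes by role. Eef1e1, Eif3j2 and Eif4e are the farthest to the right, at 1.53, 1.34 and 1.29, and Eif4ebp2 is the farthest to the left, at -0.69.

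The cap-binding genes and their repressors differed among themselves. Eif4e (chromosome 3, 138526179 to 138559696 in mm10, plus strand), which encodes the cap-binding protein of canonical initiation, stood at 120 CPM in replicate 1, against 49.9, 52.8 and 45.3 CPM in replicates 2, 3 and 4. Replicate 1 lay above the other 3 libraries, as it did for 41.4% of all genes tested, and those 3 lay close together. The log2 fold was 1.29 ± 0.10 (standard error, as for each log2 fold), an adjusted p of 0.0037 in edgeR's quasi-likelihood test. Eif4e2 (chromosome 1, 87213914 to 87240488, plus strand) encodes a related cap-binding protein that does not bind eIF4G and is known as a repressor. It stood at 55.8 CPM in replicate 1, against 60.1, 57.3 and 55.4 CPM in the others, and its log2 fold was -0.04 ± 0.09 (adjusted p = 0.741, edgeR). Replicate 1 thus lay inside the range of the other libraries for Eif4e2. Eif4e3, the remaining detected gene of the family, had a log2 fold of -0.01 ± 0.10.

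In TPM, Eif4e stood at 48.4 in replicate 1, against 14.4, 15.5 and 21.8 in replicates 2, 3 and 4, and Eif4e2 at 27.5, against 20.4, 18.9 and 27.9. Eif4e was thus the more abundant of the pair in replicate 1 and Eif4e2 in the other 3, with Eif4e over Eif4e2 at 1.76, against 0.707, 0.819 and 0.782. In the target tables, the second quantification the authors deposited, this ratio was 2.09, against 0.835, 0.993 and 0.972. The order of the pair over 4 libraries was not settled, at a mean difference of -0.07 ± 0.58 on the log2(TPM + 1) scale (SD, n = 4; p = 0.875 by exact two-sided sign-flip permutation).

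The eIF4E-binding proteins hold eIF4E away from eIF4G until mTORC1 phosphorylates them. Eif4ebp2 (chromosome 10, 61428491 to 61452661, minus strand) stood at 138 CPM in replicate 1, against 234, 195 and 238 CPM in replicates 2, 3 and 4. It was lower in replicate 1, with a log2 fold of -0.69 ± 0.15 (adjusted p = 0.0333, edgeR), though on the target tables the adjusted p was 0.0874. Eif4ebp1 had a log2 fold of -0.00 ± 0.16, and Eif4ebp3, whose reads overlap the gene AC115631.1 on the same strand, -0.43 ± 0.28. The posterior SD of the Eif4ebp3 count, given in the gene tables, was 14.3% of its mean. The 3 genes were ordered alike in all libraries, with mean levels of 21.4 ± 6.84 TPM for Eif4ebp2, 8.30 ± 2.98 TPM for Eif4ebp1 and 2.78 ± 0.599 TPM for Eif4ebp3 (SD, n = 4). Their summed TPM over that of Eif4e was 0.588 in replicate 1, against 2.04, 1.62 and 2.15 in the others, and it was 0.536, against 1.83, 1.46 and 1.82, when taken from the target tables. A within-library ratio does not depend on the share that 7SL took. Eif4enif1, which encodes a carrier of eIF4E that binds it through a like site, had a log2 fold of 0.27 ± 0.09 (adjusted p = 0.0867, edgeR).

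**Figure D4:**
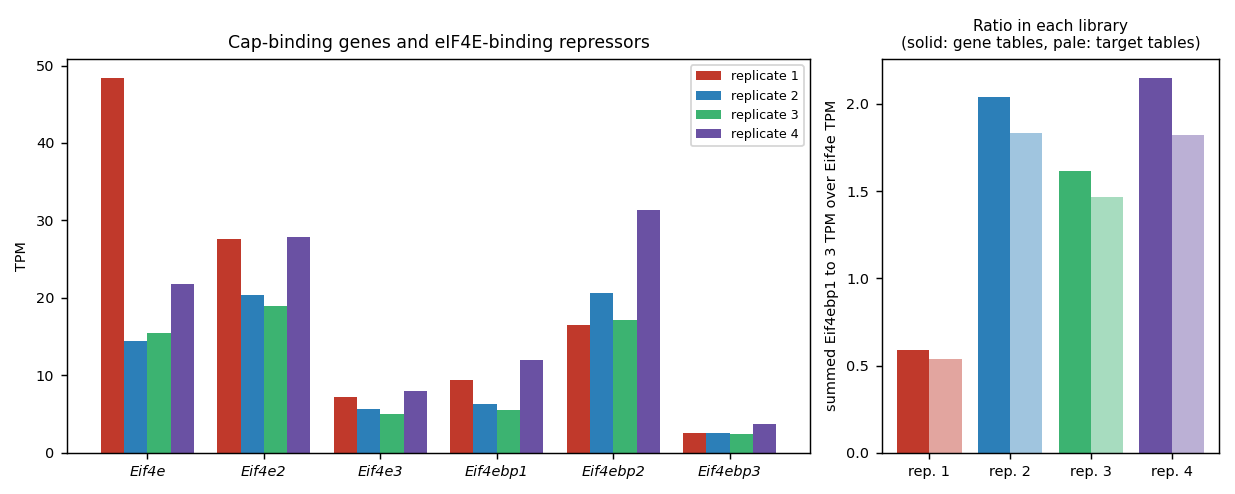
Left, TPM of the cap-binding genes and the eIF4E-binding repressor genes in each library; right, the summed TPM of Eif4ebp1 to Eif4ebp3 over Eif4e in the gene tables (solid bars) and the target tables (pale bars). Replicate 1 has the tallest Eif4e bar, at 48.4 TPM, and the lowest ratio, at 0.588.

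The promoter of Eif4e is shown because this gene had the largest fold among the members with a mean above 10 TPM and because CACGTG, the E-box bound by MYC with MAX and by other helix-loop-helix factors, occurred in it more than once. Sequences are from RefSeq on GRCm38.p6, run from 250 bases before to 50 after an annotated start, 5′ to 3′ on the strand of the gene, and have CACGTG in capitals. The Eif4e window, 1 of its 2, is chr3:138527018-138527317 on the plus strand, the Eif4a1 window chr11:69672374-69672673 on the minus strand and the Eif5a window, 1 of its 6, chr11:69921226-69921525 on the minus strand. All 3 genes were higher in replicate 1, so they show 1 side only. Of the genes with CACGTG, 4 were higher in replicate 1, 1 was lower and 8 were not called.
Eif4e: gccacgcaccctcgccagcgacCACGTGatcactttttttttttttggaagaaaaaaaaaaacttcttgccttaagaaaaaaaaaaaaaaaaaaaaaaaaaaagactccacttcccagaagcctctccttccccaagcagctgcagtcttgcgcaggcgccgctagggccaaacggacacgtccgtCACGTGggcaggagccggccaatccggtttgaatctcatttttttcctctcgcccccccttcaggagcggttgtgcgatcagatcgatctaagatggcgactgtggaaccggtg
Eif4a1: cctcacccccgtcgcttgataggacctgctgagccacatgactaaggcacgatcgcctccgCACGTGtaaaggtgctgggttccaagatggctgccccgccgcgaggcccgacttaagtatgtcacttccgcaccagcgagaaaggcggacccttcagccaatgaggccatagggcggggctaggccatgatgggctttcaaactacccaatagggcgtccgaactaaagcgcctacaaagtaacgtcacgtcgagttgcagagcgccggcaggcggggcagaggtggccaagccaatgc
Eif5a: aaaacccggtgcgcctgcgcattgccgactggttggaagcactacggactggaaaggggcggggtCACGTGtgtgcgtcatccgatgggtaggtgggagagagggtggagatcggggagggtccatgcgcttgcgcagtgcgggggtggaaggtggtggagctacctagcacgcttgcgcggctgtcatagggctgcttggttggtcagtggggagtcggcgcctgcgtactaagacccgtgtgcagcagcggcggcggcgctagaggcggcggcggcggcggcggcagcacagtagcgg

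Promoter windows were found for 49 of the 65 genes. CACGTG, which reads the same on both strands and can share only its first C with the runs below, occurred in 13 of them (26.5%), against 11.8% of tested genes with a window and 8.09% of all genes with one. The 13 were Eif4e, Eif4a1, Eif4g1, Eif4h, Eif5a, Eif5a2, Eif1b, Eif3a, Eif3f, Eif3k, Eef2, Eef2k and Eef1akmt4. The share did not separate the genes by replicate: CACGTG was in 4 of 15 genes higher in replicate 1 (26.7%) and in 8 of 30 that were not called (26.7%). The windows of the 49 genes and of the tested genes had median GC contents of 62.3% and 60.7%. A match is a description of these letters and not a binding site.

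Many mRNAs for elongation factors and some eIF3 subunits are known to start with an oligopyrimidine tract, through which mTORC1 controls their translation. The stretches below show the longest unbroken run of C and T in capitals for 5 of the genes, 1 of them called in replicate 1. An unbroken run of at least 8 C and T bases was sought on the strand of the gene. The stretch searched ran from 20 bases before to 50 after the start. Such runs were in 18 of the 49 genes (36.7%), against 27.4% of tested genes and 28.5% of all genes with a window. Of the 18, Eef1a2 and Eif2s3y were not tested. The search did not ask for a run that begins at the first base of the mRNA, as a true tract does. The 5 stretches are Eef1a1 at chr9:78481710-78481739 on the minus strand, Eef2 at chr10:81176634-81176663 on the plus strand, Eif3f at chr7:108934404-108934433 on the plus strand, Eif3k at chr7:28981855-28981884 on the minus strand and Eif2s3x at chrX:94212634-94212663 on the minus strand.
Eef1a1: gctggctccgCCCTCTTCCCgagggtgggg
Eef2: gacgtcagcggTCTCTTCCgccgcagccgc
Eif3f: ttctaggCTCTCTCTCTTTCTCggcaagat
Eif3k: ctgaaagcgCCTTTCCCTTTgccttccttg
Eif2s3x: ccgagcaTTTTCCTTTTCTCTCCgagcaag

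The run began 5 bases before the annotated start in Eef1a1, 4 before it in Eif3f and 5 before it in Eif2s3x. In Eef2 it began 14 bases after that start and in Eif3k 13 after it. These starts are those of RefSeq, and the gene bounds used for the levels can differ. By those bounds Eif3k begins at 28981864 on the minus strand, and its run lies wholly before the gene. Eif3f begins at 108934404 by them, and its run lies after that start. Whether either annotated start is where each mRNA begins was not tested. The offsets therefore do not show which of these runs are true tracts. The median log2 fold of replicate 1 was 0.13 for the 16 tested genes with such a run and 0.32 for the 31 without. Of the 5 genes shown, Eif2s3x was higher in replicate 1 and the other 4 were not called.

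The eIF4G and eIF4A genes, which complete the cap-binding complex, were led by Eif4a1 and Eif4g2. Eif4a1, the main helicase gene (chromosome 11, 69666936 to 69672423 in mm10), stood at 714 CPM in replicate 1, against 468, 472 and 461 CPM in replicates 2, 3 and 4, a log2 fold of 0.61 ± 0.11 (adjusted p = 0.018, edgeR). Without replicate 2 the adjusted p was 0.0599. Its close relative Eif4a2 had a log2 fold of 0.05 ± 0.09, and Eif4a1 over Eif4a2 in TPM was 6.42 in replicate 1, against 4.96, 4.41 and 4.27. This ratio takes all transcripts. Only 19.2% to 25.2% of the Eif4a2 TPM lay in protein-coding ones in a library, against 90.7% to 95.6% for Eif4a1. It therefore need not hold for coding transcripts. Eif4a3, which serves the exon junction complex and not initiation, was higher in replicate 1 at a log2 fold of 0.56 ± 0.12 (adjusted p = 0.0301, edgeR). The cofactor genes Eif4b and Eif4h had log2 folds of -0.20 ± 0.15 and 0.18 ± 0.09 and were not called. The reads of Eif4a1 also cover snoRNA genes on the same strand, and counting could also split reads with the pseudogene Eif4a-ps4, listed at a mean of 4.92 TPM.

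Eif4g2 encodes an eIF4G relative without an eIF4E-binding site, used in cap-independent and re-initiating translation. It stood at 1093 CPM in replicate 1, against 755, 738 and 687 CPM in the others, a log2 fold of 0.59 ± 0.12 (adjusted p = 0.0297, edgeR), and was not called without replicate 2 or without replicate 3, where the largest adjusted p was 0.0875. Eif4g2 exceeded the canonical scaffold gene Eif4g1 in every library, by 2.51, 2.42, 2.11 and 2.37 times in TPM. Eif4g1 itself had a log2 fold of 0.45 ± 0.13 (adjusted p = 0.0656, edgeR) and Eif4g3 of -0.20 ± 0.10.

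The genes of the start codon step were present at 9.80 to 197 TPM. Eif1, which keeps the scanning ribosome from stopping at poor start codons, stood at 231, 179, 161 and 216 TPM in replicates 1 to 4, and its copy Eif1b at 29.1, 18.6, 16.5 and 21.9 TPM. Eif1 was the higher of this pair in each library. Eif1a and its X-linked copy Eif1ax, which encode the scanning factor eIF1A, stood at 22.02 ± 6.32 and 9.80 ± 4.17 TPM (SD, n = 4). Eif1ax was the only gene of this group that edgeR called, at 62.5 CPM in replicate 1, against 38.6, 35.8 and 32.8 CPM in replicates 2, 3 and 4, a log2 fold of 0.81 ± 0.11 (adjusted p = 0.011, edgeR). Eif1a did not pass edgeR's test, at a log2 fold of 0.22 ± 0.09 (adjusted p = 0.16). Eif5, whose protein makes eIF2 hydrolyse its GTP, and Eif5b, which joins the ribosomal subunits, had log2 folds of 0.32 ± 0.09 (adjusted p = 0.0585, edgeR) and -0.19 ± 0.19. Eif1 and Eif1b had 0.18 ± 0.11 and 0.34 ± 0.14 and were not called.

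The eIF2 complex has 3 subunits, whose genes stood between 11.0 and 55.5 TPM in single libraries and in the order Eif2s3x, Eif2s2 and Eif2s1 in all 4. Eif2s1, the subunit that stress kinases phosphorylate, stood at 109 CPM in replicate 1, against 65.5, 60.4 and 60.5 CPM in replicates 2, 3 and 4. Replicate 1 lay above the others, as it did for 41.4% of all genes tested, and the log2 fold was 0.81 ± 0.09. Eif2s3x, the subunit that binds GTP and initiator tRNA, was higher in replicate 1 with a log2 fold of 0.54 ± 0.09 (adjusted p = 0.0184, edgeR), and without replicate 4 the adjusted p was 0.0501. Eif2s2 did not pass edgeR's test, at 0.17 ± 0.11 (adjusted p = 0.342).

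The exchange factor eIF2B, which recharges eIF2 with GTP and is the target of phosphorylated eIF2, was measured at lower levels than its substrate. The 3 eIF2 genes held 2.51, 1.98, 2.21 and 2.22 times the summed TPM of the 5 eIF2B genes in replicates 1 to 4. Within eIF2B the order by TPM of all transcripts was Eif2b2, Eif2b5, Eif2b1, Eif2b4 and Eif2b3 in all libraries. The highest exceeded the lowest by 2.89 times in replicate 1 and by 7.11, 6.17 and 6.76 times in the others. Only 48.0% ± 5.81 of the Eif2b2 TPM lay in protein-coding transcripts (SD, n = 4), against 100% for Eif2b5. The lead of Eif2b2 and the size of this spread therefore need not hold for coding transcripts. Eif2b3 was the lowest and had the largest fold of the group. It stood at 9.95 CPM in replicate 1, against 5.50, 5.06 and 4.72 CPM in replicates 2, 3 and 4, a log2 fold of 0.97 ± 0.16 (adjusted p = 0.0164, edgeR). Eif2b1 followed with a log2 fold of 0.61 ± 0.10 (adjusted p = 0.0171, edgeR), and the catalytic subunit gene Eif2b5 did not pass, at 0.38 ± 0.11 (adjusted p = 0.0609). Eif2b4 and Eif2b2 had 0.10 ± 0.14 and -0.19 ± 0.11. Eif2a and Eif2d, whose proteins can bring initiator tRNA without eIF2, had log2 folds of -0.23 ± 0.18 and -0.05 ± 0.10.

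The genes of eIF3, the largest initiation factor, were measured at similar levels. The 12 genes other than Eif3j1 and Eif3j2 ran from 15.1 to 79.7 TPM in single libraries, and the highest was 2.59, 3.34, 3.37 and 3.23 times the lowest in replicates 1 to 4. The top 3, Eif3h, Eif3k and Eif3a, had means of 59.4 ± 15.2, 58.7 ± 12.1 and 56.9 ± 12.5 TPM (SD, n = 4), and each neighbour was the higher in 2 of the 4 libraries, so they were not ordered beyond their spread. Called higher in replicate 1 were 5 of the 14 genes and lower were 0, against 14.5% and 7.58% of all genes tested. These were Eif3b, which anchors the subunits near the mRNA entry channel, Eif3g, Eif3d, which can bind some mRNA caps in human cells, and the pair Eif3j1 and Eif3j2. Eif3b stood at 256 CPM in replicate 1, against 165, 178 and 138 CPM in replicates 2, 3 and 4, a log2 fold of 0.67 ± 0.16 (adjusted p = 0.038, edgeR). Eif3g had a log2 fold of 0.59 ± 0.11 and Eif3d of 0.49 ± 0.08, and for Eif3d the adjusted p without replicate 4 was 0.0501.

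Of the other subunit genes, Eif3f had a log2 fold of -0.58 ± 0.16, the lowest of the 14, and an adjusted p of 0.0556 in edgeR's test, while Eif3h had -0.31 ± 0.18 and Eif3m -0.03 ± 0.10. Eif3a, Eif3c, Eif3e, Eif3i, Eif3k and Eif3l ran from -0.10 to 0.40 and were not called. Eif3f was lower at an adjusted p under 0.05 in 4 of the 8 alternative analyses. Eif3j1 and Eif3j2 encode the loosely held j subunit and share reads: the posterior SD of the count, given in the gene tables, was 1.89% and 7.39% of its mean. In the gene tables Eif3j1 was the higher at 8.96, 4.29, 4.23 and 5.56 TPM in replicates 1 to 4, against 7.58, 2.45, 2.04 and 3.07 TPM for Eif3j2, while in the target tables Eif3j2 was the higher in every library and Eif3j1 over Eif3j2 was 0.480 to 0.537. Both were higher in replicate 1 in either table. Eif3j2 stood at 24.5 CPM in replicate 1, against 10.7, 9.01 and 9.13 CPM in replicates 2, 3 and 4, with a log2 fold of 1.34 ± 0.13 (adjusted p = 0.0051, edgeR). Eif3j1 stood at 69.4 CPM in replicate 1, against 44.96, 43.0 and 38.8 CPM in the others, with a log2 fold of 0.71 ± 0.11 (adjusted p = 0.013, edgeR) in the gene tables.

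Eef1a1 and Eef2 were the most abundant of the 65 genes by mean TPM. Of the Eef1 and Eef2 genes described here, Eef1g was called in replicate 1, while Eef1a1, Eef2, Eef1d and Eef1b2 were not. Eef1a1 stood at 1742, 1505, 1327 and 1992.5 TPM and Eef2 at 282, 270, 227 and 377 TPM in replicates 1 to 4. Their ratio was 6.18 in replicate 1, against 5.56, 5.86 and 5.29 in the others. In CPM, Eef1a1 had 4041 in replicate 1, against 4634, 4024 and 4211 in the others (log2 fold -0.09 ± 0.16), and Eef2 had 1203, against 1569, 1315 and 1475 (-0.27 ± 0.16, adjusted p = 0.283 in edgeR). The 3 genes of the exchange complex that recharges eEF1A differed. Eef1g stood at 349 CPM in replicate 1, against 241, 226 and 209 CPM in replicates 2, 3 and 4, a log2 fold of 0.63 ± 0.12 (adjusted p = 0.0209, edgeR), Eef1d had 0.42 ± 0.11 (adjusted p = 0.0538) and Eef1b2 0.05 ± 0.11. Eef1d was higher at an adjusted p under 0.05 in 4 of the 8 alternative analyses. Eefsec, the elongation factor for selenocysteine, stood at 2.57 ± 0.517 TPM (SD, n = 4).

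Eif5a, a factor that carries the modified amino acid hypusine and helps ribosomes at proline-rich stretches, stood at 385 CPM in replicate 1, against 223, 228 and 197 CPM in replicates 2, 3 and 4. The log2 fold was 0.83 ± 0.12 (adjusted p = 0.0111, edgeR). Its relative Eif5a2 was scarce, at 2.39, 1.44, 1.33 and 1.94 TPM in replicates 1 to 4, against 237, 100.1, 101.4 and 129 TPM for Eif5a. Eif6, which keeps the large ribosomal subunit from joining too early, had a log2 fold of 0.42 ± 0.10 (adjusted p = 0.0397, edgeR), a call lost with the size factors of DESeq2 and without replicate 2, 3 or 4, at adjusted p-values up to 0.0979.

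Among the genes that modify elongation factors, Eef2k was the second gene lower in replicate 1. It encodes the kinase that inhibits eEF2, and stood at 34.5 CPM in replicate 1, against 46.1, 43.2 and 45.8 CPM in replicates 2, 3 and 4, a log2 fold of -0.39 ± 0.09 (adjusted p = 0.043, edgeR). The call was lost with no filter on low counts, on the target tables and without replicate 2 or 3, with adjusted p-values up to 0.22. Eef1akmt4, a methyltransferase gene, stood at 7.60 CPM in replicate 1, against 4.33, 3.86 and 4.37 CPM in replicates 2, 3 and 4, a log2 fold of 0.86 ± 0.18 (adjusted p = 0.0293, edgeR) that was not called by DESeq2 or without replicate 3 or 4, at adjusted p-values up to 0.0545. The methyltransferase genes Eef1akmt1, Eef1akmt2 and Eef2kmt had log2 folds of 0.25 ± 0.21, -0.00 ± 0.18 and 0.34 ± 0.11.

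Eef1e1 and Eif1ad carry factor names for other reasons: Eef1e1 encodes a small subunit of the multi-synthetase complex, and Eif1ad a protein with a fold like that of eIF1A. Eef1e1 stood at 23.3 CPM in replicate 1, against 7.93, 9.19 and 7.09 CPM in replicates 2, 3 and 4. Its log2 fold of 1.53 ± 0.16 was the largest of the 61 (adjusted p = 0.0054, edgeR). Eif1ad, which overlaps Banf1 on the opposite strand, stood at 33.6 CPM in replicate 1, against 19.9, 19.8 and 15.9 CPM in replicates 2, 3 and 4, a log2 fold of 0.86 ± 0.15 (adjusted p = 0.0184, edgeR).

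Other genes of translation gave further values from lists chosen with earlier results of these libraries known. Of 21 cytosolic aminoacyl-tRNA synthetase genes, whose enzymes charge tRNAs, 13 were higher in replicate 1 and 0 lower, with a median log2 fold of 0.55. Vars, the valine enzyme, had the largest fold, at 65.6 CPM in replicate 1, against 32.9, 34.3 and 33.1 CPM in replicates 2, 3 and 4. Of 9 termination and recycling genes 2 were higher, the ribosome recycling gene Abce1 with a log2 fold of 1.16 ± 0.11 and the release factor gene Gspt1 with 0.73 ± 0.10. Of 9 genes for hypusine and diphthamide, the modified residues of eIF5A and eEF2, 2 were higher, led by Dph6 at 1.27 ± 0.11. Of 5 poly(A) binding genes 1 was higher, Pabpc4, and of 9 mitochondrial translation factor genes 3 were, Tsfm, Gfm1 and Tufm. In the other direction, 5 of 14 genes of mTORC1, MNK and S6K signalling were lower in replicate 1 and 2 were higher. Pdcd4, an inhibitor of eIF4A, stood at 7.51 CPM in replicate 1, against 19.9, 16.6 and 20.8 CPM in the others, and the eIF4E kinase genes Mknk1 and Mknk2 had log2 folds of -0.96 ± 0.10 and -0.66 ± 0.13. Among eIF2 kinase and phosphatase genes 1 of 8 was higher, Ppp1cb. The shares for all genes tested are those given above, 14.5% higher and 7.58% lower.

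The transcript tables show which transcripts carried these levels. They annotate 398 transcripts of these genes, and both quantifications named the same most abundant one for 59. For 32 genes at least 95% of TPM lay in protein-coding transcripts in both tables, and the medians were 98.2% and 96.6%. For 10 genes under 80% did in both, and for 4 of these, Eif4a2, Eef1b2, Eif2a and Eef1akmt2, under 80% of the reads did as well. For the other 6, 87.1% to 96.1% of the reads lay in coding transcripts.

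Eif4a2 was the gene with the lowest coding share, at 25.2%, 19.2%, 19.5% and 22.7% of its TPM in replicates 1 to 4, and at 32.4% ± 4.23 in the target tables (SD, n = 4). Its most abundant transcript, Eif4a2-210, is annotated for nonsense-mediated decay, the pathway that removes mRNAs with an early stop codon, and took 38.0% ± 5.24 of the TPM and 40.4% ± 5.33 of the reads of the gene. A second one of this class, Eif4a2-204, took 19.8% ± 3.52 of the TPM. Eif4a2 is overlapped by Rfc4 on the opposite strand and holds snoRNA genes. Eef1b2-205, also annotated for decay, took 42.2% ± 2.84 of the TPM of Eef1b2 and 31.6% ± 2.57 of its reads. Eef1b2 is overlapped by Ndufs1 on the opposite strand, with a mean of 2577 counts, and the sources used here do not say whether counting used strand.

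In other genes short transcripts took a larger share of TPM than of reads. Eif1-202, of 383 bases and annotated without a coding frame, took 42.4% ± 4.06 of the TPM of Eif1 but 10.4% ± 1.83 of its reads (SD, n = 4). The retained-intron transcript Eif1ax-202, of 416 bases, took 49.0% ± 5.01 of the TPM in the transcript tables and 63.1% ± 1.51 in the target tables, on 3.86% ± 0.916 of the reads. Eif4a3-203, without a coding frame, took 42.2% ± 2.37 of the TPM of Eif4a3, and a retained-intron transcript of 338 bases took 45.5% ± 6.42 of that of Eif2b2. The transcript Eif4e-201, of 4991 bases, held 72.4% ± 1.86 of the Eif4e reads but 24.9% ± 1.84 of its TPM, most of the rest lying in short coding transcripts. Its share of TPM in replicate 1 lay inside the range of the others, at 25.7% there and 26.1%, 25.6% and 22.1% in replicates 2, 3 and 4.

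**Figure D5:**
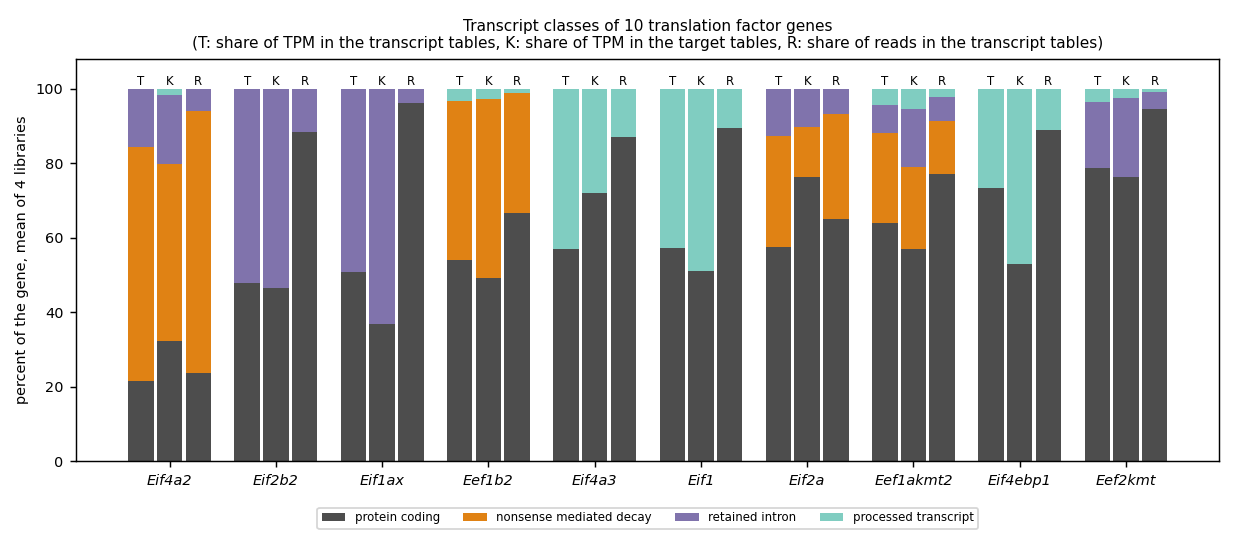
Share of each transcript class, as the mean of 4 libraries, for the 10 genes with under 80% of TPM in protein-coding transcripts in both tables: TPM of the transcript tables (T), TPM of the target tables (K) and reads of the transcript tables (R). For Eif4a2 the orange class of nonsense-mediated decay exceeds the coding share in all 3 bars, while for Eif1ax the coding share is 96.1% of reads and 50.96% of TPM.

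Paralogs mostly kept 1 order of level. Of 14 pairs compared, 13 had the same member higher in all 4 libraries of the gene tables, and the exception was Eif4e with Eif4e2. The order of Eif3j1 and Eif3j2 was the other way round in the target tables. For these 13 the exact two-sided sign-flip permutation gave p = 0.125 each (0.135 after Benjamini-Hochberg adjustment over the 14), the smallest that 4 libraries allow, so no pair could pass 0.05. Eif5a exceeded Eif5a2 by 5.61 ± 0.353, as the mean difference of log2(TPM + 1) (SD, n = 4). Eef1a2 and Eif2s3y were at or near 0, so the size of their gaps is set by the pseudocount: Eef1a1 exceeded Eef1a2 by 10.6 with 1 TPM added and by 13.7 with 0.1 TPM added, and Eif2s3x exceeded Eif2s3y by 5.24 and 8.52. Narrower ones were Eif4a1 over Eif4a2, at 2.28 ± 0.268, Eif1a over Eif1ax, at 1.13 ± 0.255, and Eif4g1 minus Eif4g2, at -1.21 ± 0.109. All these gaps take all transcripts of a gene, and for Eif4a2 most of the TPM lay outside coding ones.

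The levels and folds above depend on the tables and on the neighbours of each gene. TPM in the gene tables was a median of 2.59 times that of the target tables for the 61 genes, from 1.21 to 3.69, and 2.57 times for all genes tested. Of the 65 genes, 14 are overlapped on the opposite strand by a gene averaging 10 counts or more, among them Eif2a by Serp1 and Eif3j1 by Spg11, with means of 13773 and 4435 counts. In addition, 8 genes hold 17 snoRNA genes on their own strand. Of the 22 genes called in replicate 1, 14 were called in all 8 alternative analyses, among them Eif4e, Eif5a, Eif2s1, Eif1ax, Eef1g and Eef1e1.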

How the data were processed

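Members and gene lists were chosen with earlier results of these data known. Per library, the authors deposited gene and transcript tables with expected counts and TPM derived from a transcriptome alignment, and a target table with estimated counts and TPM made directly from reads, on mm10 with GENCODE M21, per the text deposited with the files. The sources used here name neither aligner nor quantifiers, nor whether strand was used. Features naming no gene, 0.0267% to 0.407% of counts, were left out.

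Expected counts were rounded. Genes averaging at least 10 counts were tested with edgeR 4.0.16 (TMM, quasi-likelihood, each replicate against the other 3, Benjamini-Hochberg over all genes tested) under R 4.3.3, after a test on simulated data. The simulated counts spread less than these data, whose common biological coefficient of variation (spread beyond counting noise, relative to level) was 0.327 over all 4 libraries. The simulation therefore gives no error rates for these data. Standard errors come from the fold and the F statistic. Alternatives were DESeq2 1.42.0, its size factors, no filter, protein-coding genes alone, the target tables, and each library left out. A count of 0 allows up to 0.0626 to 0.0997 CPM (3 counts of the library), for counting error only. Genes were named by role: the most abundant 3 of a role, paralog pairs, called genes, and up to 3 called genes per list, with others by range. Python 3.11.15, pandas 2.3.3 and matplotlib 3.10.9 did the rest.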

Additional observations from a re-analysis of the deposited data

Results flagged for a closer look

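In 14 of 61 tested genes, replicate 1 was so far above the other 3 libraries that the gap took most of the range of the group. These are 23.0% of the 61, against 9.23% of all genes tested with replicate 1 this far above. Chance alone flags about 1 in 20 such groups when any library and either end count, and so fewer for 1 library at 1 end. In replicates 2, 3 and 4, 0.171%, 0.612% and 0.548% of all genes tested were this far above, and 0% of the 61. The flagged genes share the library. In replicate 1, Eif4g2 stood at 1093 CPM, Eif4a1 at 714, Eif5a at 385, Eif2s3x at 284, Eif5 at 236, Eif4e at 120, Eif2s1 at 109, Eif3d at 94.5, Eif4enif1 at 41.0, Eif3j2 at 24.5, Eef1e1 at 23.3, Eif2b1 at 21.3, Eif2b3 at 9.95 and Eef1akmt4 at 7.60 CPM. Of these, Eif5 and Eif4enif1 were not called by edgeR.

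Both genes listed at 0 in the gene tables had some estimated counts in the target tables. Eif4e1b had 11.4, 6.66, 33.1 and 44.4 in replicates 1, 2, 3 and 4, and Eif2s3y had 4.03 in replicate 3 and 6.0 in replicate 4.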

How the results depend on the processing

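No paired analysis was possible because the labels give 1 group. The direction of the paralog pairs held, with the exceptions below, and the counts of called, detected and varying genes stayed within 1.5 times. Eif4e minus Eif4e2 on the log2(TPM + 1) scale, -0.07 in the gene tables, was 0.19 on the target tables, 0.11 in CPM, and -0.36 to 0.060 when 1 library was left out (-0.36 without replicate 1, 0.060 without replicate 2 and 0.016 without replicate 4). Eif3j1 minus Eif3j2, 0.58 in the gene tables, was -0.62 on the target tables. The cause of either change was not tested. Of the 61 genes, replicate 1 had 20 higher and 2 lower, against 14.5% and 7.58% of all genes tested. The alternatives gave 22 and 3 with DESeq2 (13.5% and 9.85% of all genes), 23 and 0 on the target tables (12.7% and 2.98%), 21 and 3 in a fit of protein-coding genes alone (17.8% and 13.5%), and 16 to 18 and 1 to 3 with 1 library left out (10.6% to 12.7% and 6.37% to 9.74%). Alternatives that lost a call are named beside each gene in the report, and 7 further genes were called under an alternative alone. With 4 libraries or fewer no permutation p under 0.05 can be reached, so the p-values of the paralog pairs say nothing of stability.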
